A study of Mus musculus with 8 samples.

Results

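Endothelial cells line the sinusoids and the larger vessels of the liver, and 10 genes known as markers of these cells were followed through the livers of 8 female Ames dwarf mice. All probe sets were taken whose only gene symbol in the array's annotation was Tie1, Cdh5, Ramp2, Tek, Kdr, Flt1, Flt4, Pecam1, Eng or Esam, whatever their signal. This gave 12 of the 12422 non-control probe sets on the array, for 9 genes. No probe set carried Esam as its only symbol, so Esam was not analysed here, and a probe set annotated to both Ramp2 and Vps25 was left out. Each mouse was homozygous for the df allele and ate standard pelleted food without restriction until it was killed at 24 to 26 months of age. All 8 animals therefore share the pituitary defect of this strain, which makes no growth hormone, prolactin or thyrotropin. The samples form 1 group, 1 Affymetrix mouse U74Av2 array each, and are called livers 1 to 8 by the number in their titles. No control genotype or diet was analysed here, so the question is how the markers varied from liver to liver and whether they varied together. Nothing in the labels describes how the animals were chosen, and the spread between samples includes that between arrays.

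The markers fall into a few molecular systems. Kdr, Flt1 and Flt4 encode the receptors for the vascular endothelial growth factors (VEGFs), and Tek and Tie1 encode the receptor for angiopoietins and its partner, all tyrosine kinases of the cell surface. Cdh5 (VE-cadherin) and Pecam1 hold neighbouring endothelial cells together, Eng (endoglin) is a co-receptor for ligands of the TGF-beta and BMP family, and Ramp2 pairs with the receptor Calcrl to bind adrenomedullin. Sinusoidal endothelial cells of the liver are fenestrated scavenger cells that also carry receptors such as Stab1 and Lyve1. Pecam1 is also found on leukocytes and platelets, and Eng on macrophages and stellate cells.

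RefSeq promoters (assembly GRCm38.p6, 250 bases before to 50 after the start) were found for 6 of the 9 measured genes. Shown here are those of the 3 genes with an entry and a correlation of at least 0.7 with the other markers (Eng, Flt4, Tek), and that of Kdr, the tested gene with the lowest correlation, all 5′ to 3′ on the gene's strand. Eng lies at chr2:32646345-32646644 (plus strand), Flt4 at chr11:49609429-49609728 (plus), Tek at chr4:94739039-94739338 (plus) and Kdr at chr5:75978406-75978705 (minus). Capitals mark AGGAAG, a form of the site of ETS-family factors, and AGATAA, a form of the GATA site, on either strand. None of the 6 promoters held both motifs.
Eng: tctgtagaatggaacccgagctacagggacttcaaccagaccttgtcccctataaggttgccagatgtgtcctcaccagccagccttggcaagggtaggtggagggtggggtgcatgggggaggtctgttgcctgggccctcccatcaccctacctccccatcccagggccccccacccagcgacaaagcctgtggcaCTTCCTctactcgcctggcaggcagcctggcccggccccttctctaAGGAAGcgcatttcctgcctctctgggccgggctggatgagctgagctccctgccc
Flt4: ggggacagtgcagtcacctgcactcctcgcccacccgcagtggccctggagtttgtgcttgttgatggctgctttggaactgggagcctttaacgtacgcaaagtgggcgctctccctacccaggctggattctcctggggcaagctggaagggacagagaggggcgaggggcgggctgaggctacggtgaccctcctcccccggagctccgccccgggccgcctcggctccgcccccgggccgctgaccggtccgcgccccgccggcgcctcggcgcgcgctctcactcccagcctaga
Tek: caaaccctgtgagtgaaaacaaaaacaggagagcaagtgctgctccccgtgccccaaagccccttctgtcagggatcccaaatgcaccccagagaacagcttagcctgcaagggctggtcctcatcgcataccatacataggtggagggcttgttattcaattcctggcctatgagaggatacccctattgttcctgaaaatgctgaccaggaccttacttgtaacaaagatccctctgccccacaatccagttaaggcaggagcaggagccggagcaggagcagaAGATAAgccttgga
Kdr: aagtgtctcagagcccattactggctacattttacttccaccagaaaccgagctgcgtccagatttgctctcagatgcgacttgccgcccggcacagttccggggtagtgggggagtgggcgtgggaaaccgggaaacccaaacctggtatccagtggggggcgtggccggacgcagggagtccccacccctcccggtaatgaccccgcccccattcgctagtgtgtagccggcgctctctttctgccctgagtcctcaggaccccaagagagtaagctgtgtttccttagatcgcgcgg
AGGAAG was found in 3 of the 6 promoters (Eng, Tie1 and Flt1) and in 35.4% of 32851 promoters of that length, and AGATAA in 1 (Tek) against 11.2%. The matches in Eng began 52 bases before the start on the opposite strand and 6 bases before it on the gene's strand, and that in Tek 37 bases after it. Neither motif was found in the windows of Flt4 and Kdr.

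Signals are deposited intensities on a linear scale, scaled between arrays so that trimmed means differed by 0.00896% at most. Median intensity lay between 155 (liver 3) and 180.2 (liver 8), and arrays correlated with each other at r of 0.907 to 0.973 over tested probe sets. No pair of arrays shared more than 0.296% of its values. A probe set was tested if its log2 signal, averaged over the livers, exceeded the median of non-control probe sets, which is a signal of 162. There are no detection calls, so a low signal cannot be told from background. The hepatocyte markers Alb and Apoa1 had signals of 30238 ± 4286 and 26034 ± 3298 (SD, n = 8). The 4 cholangiocyte markers with a probe set had geometric mean signals of at most 23.1. Livers 4 and 8 stood apart in macrophage and interferon-induced genes, whose values are given beside the endothelial order.

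All 12 marker probe sets exceeded the floor of 11.2 (the 10th percentile of all values) on all 8 arrays, but only 6 exceeded 162 on all 8. Of the 12, 7 were tested, for Eng, Flt4, Cdh5, Tie1 (both of its probe sets), Kdr and Ramp2. The 5 below the filter were those of Tek, Pecam1, Flt1 (both) and a further Flt4 probe set. The nearest on either side of the filter were a Tie1 probe set, with a geometric mean of 178, and a Flt1 probe set, with 158. Signals of different probe sets are not comparable as levels, so each gene is compared only with itself across livers. Summed signals of a list, where given, mostly follow its genes of highest signal.

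**Figure D1:**
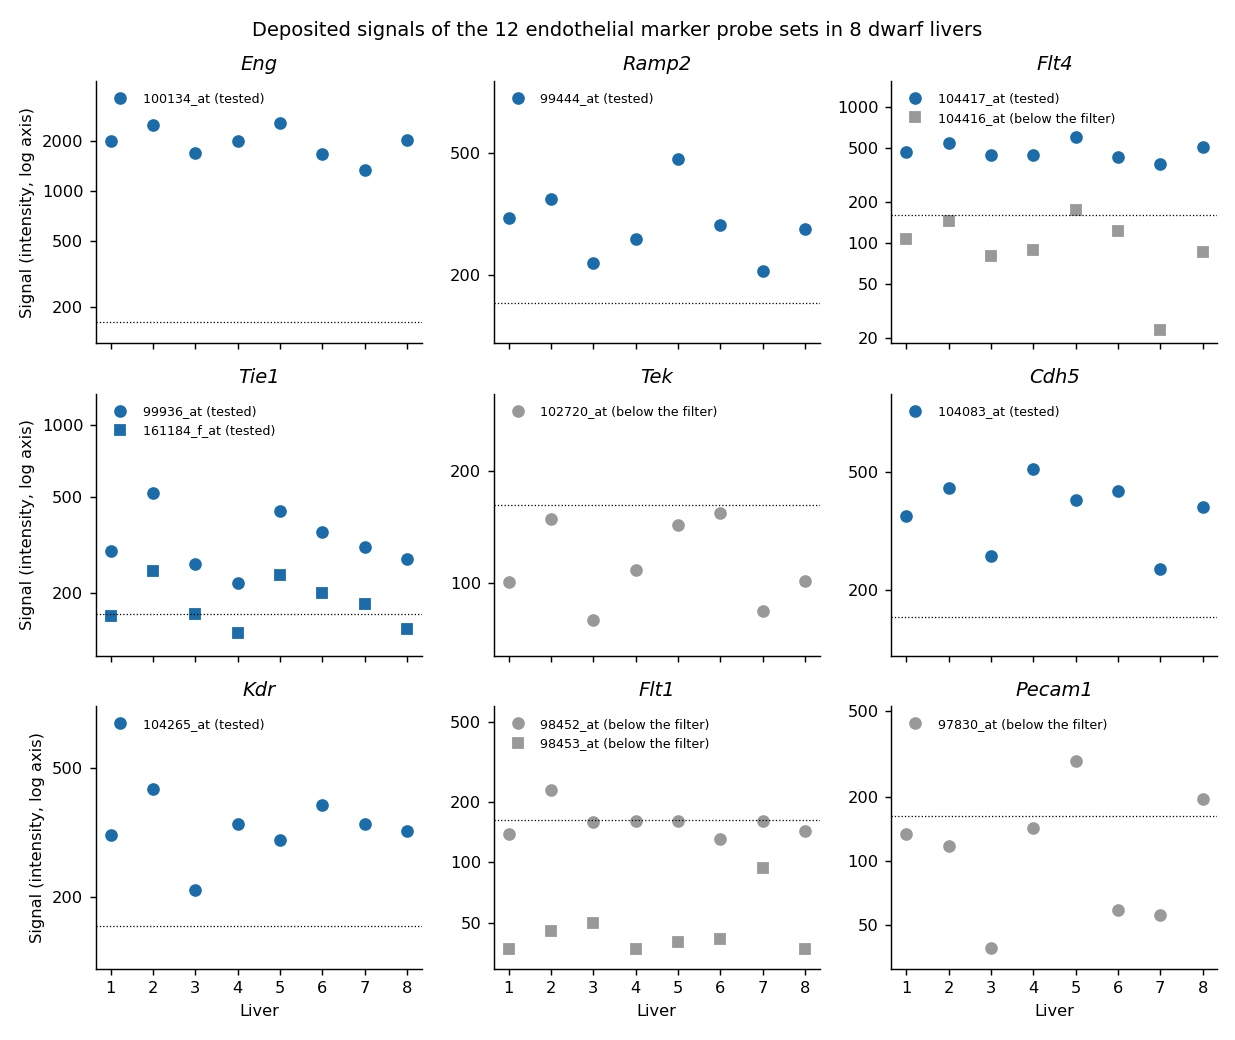
Signal (intensity, log axis, a different scale in each panel) of each of the 12 probe sets in livers 1 to 8, one panel per gene; circles and squares are different probe sets, blue points were tested, grey points were below the filter, and the dotted line is the filter signal of 162. Eng, Ramp2 and Flt4 were highest in liver 5 and lowest in liver 7, whereas Cdh5 was highest in liver 4.

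Of the VEGF receptors, Flt4 and Kdr shared liver 2 among their high livers but differed in liver 5. Flt4, the receptor known from lymphatic and sinusoidal endothelium, had signals from 379 in liver 7 over a median of 456 to 598 in liver 5 (478 ± 69.8, SD, n = 8), a range of 1.58-fold. Liver 2 was next highest at 545. Its other probe set, below the filter, went from 22.9 in liver 7 over a median of 98.2 to 176 in liver 5. Both Flt4 probe sets thus placed livers 5 and 2 highest and liver 7 lowest. Kdr, the main VEGF receptor of blood vessel endothelium, had signals from 210.4 in liver 3 over a median of 329 to 432 in liver 2 (329 ± 64.3). Liver 5, highest for Flt4, was second lowest for Kdr at 301. Flt1, which also acts as a decoy for VEGF, was below the filter on both probe sets. The probe set nearer the filter went from 131 in liver 6 to 229 in liver 2, and the other from 37.1 in liver 8 to 93.9 in liver 7, so they did not name the same livers.

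The angiopoietin receptor genes shared liver 2 among their high livers. Tie1 had signals from 219.5 in liver 4 over a median of 305 to 519 in liver 2 (335 ± 98.99, SD, n = 8), a range of 2.36-fold. Liver 5 was next at 436. Its other probe set, which has a shared-sequence suffix, went from 136 in liver 4 to 245.5 in liver 2, with the same highest and lowest livers. Tek, below the filter, went from 79.5 in liver 3 over a median of 105 to 155 in liver 6 (115 ± 29.8). Livers 2 and 5 followed liver 6 closely at 149 and 144, and liver 7 was second lowest at 84.3.

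The junction genes were low in livers 3 and 7. Cdh5 had signals from 236 in liver 7 over a median of 393 to 511 in liver 4 (378 ± 92.6, SD, n = 8), with 260.0 in liver 3. It was the tested gene whose highest liver was neither 2 nor 5. Pecam1, below the filter, went from 39.2 in liver 3 over a median of 125 to 293 in liver 5. It exceeded 162 in livers 5 and 8 only, so its 7.48-fold range is uncertain. In liver 6 the junction genes differed, with 59.3 for Pecam1 and 433 for Cdh5.

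Eng and Ramp2 had the same highest and lowest livers as Flt4. Eng had signals from 1340.2 in liver 7 over a median of 2011.5 to 2569 in liver 5 (1979 ± 415, SD, n = 8), a range of 1.92-fold. Liver 2 was next at 2496. Ramp2 had signals from 206 in liver 7 over a median of 287 to 477 in liver 5 (300.3 ± 85.8), a range of 2.32-fold. Liver 2 was again next, at 355, and liver 3 second lowest, at 220.0.

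No tested marker passed the test for a spread between livers above that usual at its signal. In limma's comparison of each variance with an intensity-trended prior, with Benjamini-Hochberg adjustment over 6211 tested probe sets, 0 of the 7 tested marker probe sets passed at 0.05. Their adjusted p ranged from 0.985 to 0.992, and 0 of 7 had an unadjusted p under 0.05. Over all tested probe sets 0% passed and 6.84% had an unadjusted p under 0.05. Against the typical variance at the same signal, a less strict alternative, 0 of 7 passed again (smallest adjusted p = 0.205 for Cdh5), where 11.3% of all tested probe sets did. The median SD of the tested markers was 0.32 on the log2 scale and that of all tested probe sets 0.24. The median range was 2.05-fold for the markers and 1.63-fold for all.

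The livers were ordered by the average of the tested markers, which some genes followed closely and others did not. Averaging the centred log2 signals of the 6 tested genes (for Tie1, its probe set with the higher mean signal) placed livers 2 and 5 highest, at 0.37 and 0.32, and livers 7 and 3 lowest, at -0.33 and -0.35. The other 4 livers lay close together, between -0.04 (liver 4) and 0.05 (liver 6). All 6 genes were above their own mean in liver 2 and 5 of 6 in liver 5, against 1 of 6 in liver 7 and 0 of 6 in liver 3. The range from lowest to highest liver was 0.72 on the log2 scale, or 1.65-fold. Since whole liver was measured, fewer endothelial cells and less RNA per endothelial cell cannot be told apart. Of the 7 tested probe sets, 6 were highest in liver 2 or 5, as were 32.9% of other tested probe sets. Of the 7, 5 were lowest in liver 3 or 7, as were 20.8% of others. These livers were picked from the same values, so these counts describe the order and do not test it. Below the filter, 3 of 5 marker probe sets were highest in liver 2 or 5, as were 37.2% of others below it, and 3 of 5 lowest in liver 3 or 7, as were 31.7%.

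**Figure D2:**
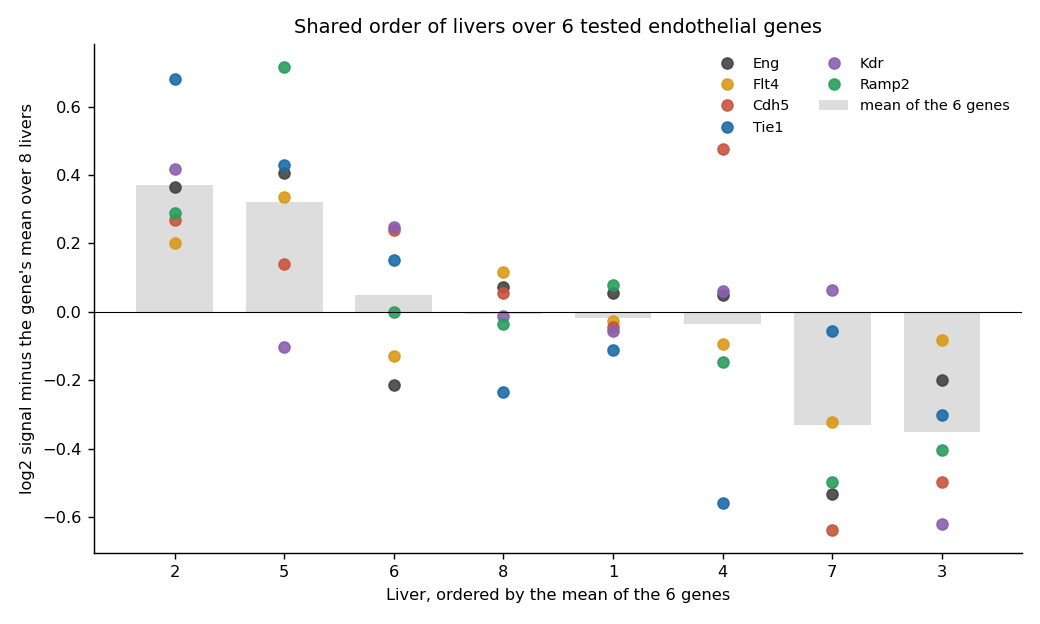
Each point is a tested gene's log2 signal minus its mean over the 8 livers, and the grey bars are the mean over the 6 genes; livers are ordered by that mean. Livers 2 and 5 are highest at 0.37 and 0.32 and livers 7 and 3 lowest at -0.33 and -0.35, while in liver 4 the genes spread from Tie1, low, to Cdh5, high.

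Over the 15 pairs of tested genes, Pearson's r of log2 signal across the 8 livers had a mean of 0.540 and a median of 0.562. All 15 were above 0, as were 50.4% of all pairs of the 4819 tested genes, and 3 of 15 were at least 0.7, as were 4.39% of all pairs. The median over all pairs was 0.0050. Pairs share genes and livers, and the genes were chosen with results of these data known, so no p-value is given for these correlations. The pairs at 0.7 or more joined Eng with Flt4 (r = 0.943, Spearman's rho = 0.976), Flt4 with Ramp2 (0.892, rho 0.786) and Eng with Ramp2 (0.878, rho 0.810). Kdr stood apart from these 3, with r of 0.0988 to Flt4, 0.222 to Eng and 0.310 to Ramp2, and rho of -0.286, -0.190 and 0.0476. Its higher correlations were with Cdh5 (0.562) and Tie1 (0.509). Tie1 and Cdh5 had an r of 0.176 with each other, liver 4 being lowest for Tie1 and highest for Cdh5.

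**Figure D3:**
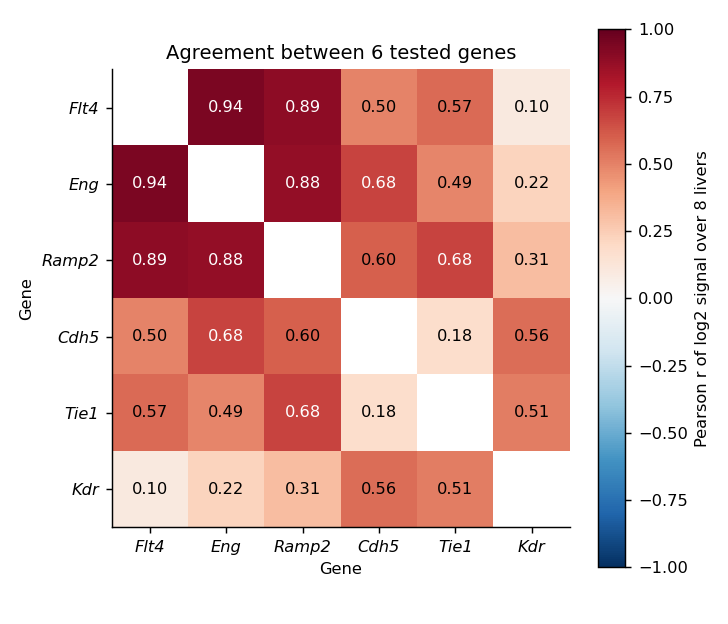
Pearson r of log2 signal over the 8 livers for each pair of the 6 tested genes, from -1 (blue) to 1 (red), with the diagonal left blank. Flt4, Eng and Ramp2 form a block of 0.88 to 0.94, and Kdr has 0.10 to 0.31 with them.

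Each probe set was then compared with the mean of the other tested genes, its own gene left out. Ramp2 (r = 0.865), Eng (0.813) and Flt4 (0.778) reached 0.7, 3 of the 6 tested genes, where 2.63% of other tested probe sets reached 0.7 with the mean of all 6. Cdh5 had an r of 0.604, Tie1 of 0.579 (0.469 on its other probe set) and Kdr of 0.449. With single livers left out, r was 0.464 to 0.840 for Cdh5, 0.392 to 0.775 for Tie1 and 0.189 to 0.656 for Kdr. By ranks only 1 of 6, Ramp2, reached 0.7. Without liver 7 the count was 2 of 6, without liver 4 it was 5 of 6, and without livers 4 and 8 it was 5 of 7. The share of other tested probe sets was 3.68% by ranks. It was 4.03% without liver 7, 4.58% without liver 4 and 7.35% without livers 4 and 8. Tie1 had an r of 0.919 without livers 4 and 8, 0.392 without liver 2 and -0.102 without livers 2 and 5. Livers 2 and 5, the high livers of the order, were picked from the same values. Without them r was lower for Flt4 (0.453), Eng (0.533) and Kdr (0.443) and higher for Ramp2 (0.908) and Cdh5 (0.711). The share of other tested probe sets at 0.7 was then 8.07%. Of the 5 probe sets below the filter, which took no part in the mean, Tek (0.887) and the further Flt4 probe set (0.766) reached 0.7, where 5.91% of other probe sets below the filter did. Pecam1 had an r of 0.699, and the Flt1 probe sets 0.409 and -0.533.

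Leaving each gene out of the mean in turn gave means whose lowest r with the mean of all 6 was 0.978 (without Tie1). The genes left in are also part of the mean of all 6, so a high r is given by construction. The mean pairwise r went down to 0.474 without Ramp2 and 0.489 without Eng, and up to 0.639 without Kdr. Without Kdr liver 5 was highest, and without Kdr or without Tie1 liver 7 was lowest. The extremes of the order were picked from the same values, so the following values are a description. Without livers 2 and 5 the mean pairwise r was 0.305, without livers 3 and 7 it was 0.293, and the range of the mean was then 0.40 and 0.41 on the log2 scale. Over single livers left out, mean pairwise r stayed between 0.425 (without liver 2) and 0.632 (without liver 4).

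Of the markers, 3 had more than 1 probe set, and these were compared with each other. The Tie1 probe sets had an r of 0.959 (rho 0.929) over the 8 livers and those of Flt4 0.799 (rho 0.643). Those of Flt1 had 0.190 (rho 0.5). Over 886 pairs of tested probe sets of the same gene the median r was 0.242, and over 3066 pairs regardless of signal 0.126. Only for Tie1 were both probe sets tested. The Flt4 probe sets named the same extreme livers but differed in between, liver 8 coming next after livers 5 and 2 on one (513) and next after livers 7 and 3 from the bottom on the other (86.4).

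The ligands and partners of these receptors were spread on both sides of 0. Of 24 listed genes, 21 had a probe set and 10 were tested, of which 0 reached 0.7, where 2.63% of other tested probe sets did, and 5 had an r above 0, where 52.4% of others did. Their median r was 0.0229, and 0 of 10 passed limma's variance test. Ctnnd1 (p120-catenin, which holds cadherins at the junction) had a signal of 2724 ± 324 (SD, n = 8) and an r of 0.617. Ctnnb1 (beta-catenin), which binds the cadherin tail, had 2456 ± 367 and -0.423. Jup (plakoglobin), which also binds the cadherin tail, had 604 ± 113 and -0.248, and is named after its value was seen. Nrp1, a VEGF co-receptor, had 958 ± 226 and -0.0056. The only tested ligands, Vegfa and Vegfb, had an r of 0.303 (rho 0.571) and 0.342 (rho 0.452), and are named after their values were seen. The angiopoietins Angpt1 and Angpt2, adrenomedullin (Adm) and Calcrl, the receptor that Ramp2 serves, were below the filter, with geometric mean signals of 37.0, 62.0, 25.3 and 23.1. The count at 0.7 was 1 of 10 without liver 7 or without liver 8, where 4.03% and 3.76% of other tested probe sets reached it.

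Other genes of endothelial cells, from lists made for this purpose, mostly had positive correlations with the order. Of lists of 21 sinusoidal and 61 vascular or general genes, 24 genes were tested, and 22 of these had an r above 0, as did 52.4% of other tested probe sets. Of the 24, 4 reached 0.7, where 2.63% of other tested probe sets did, and their median r was 0.536 against 0.0252 for the others. The sinusoidal list held 3 of the 4 among 6 tested genes. Gpr182, an atypical chemokine receptor of sinusoidal endothelium, had an r of 0.850 and signals from 284 in liver 7 to 480.5 in liver 5 (386 ± 79.6, SD, n = 8), with 479 in liver 2. Stab1, a scavenger receptor, had an r of 0.796 and signals from 449.8 in liver 1 to 685 in liver 5, with 617 in liver 2. Fcgr2b, the inhibitory Fc receptor, had an r of 0.720 and signals from 322 in liver 7 to 547 in liver 2. Gata4, a transcription factor of these cells, had 0.383, and Plpp3, a lipid phosphatase, -0.600. Of 18 tested genes of the vascular and general list, 1 reached 0.7, Sox18, a transcription factor of vessel development (0.713, 299 in liver 7 to 539 in liver 2). Aqp1, a water channel, had 0.574, Timp3 0.371 and Ly6e 0.118, the last highest in liver 4.

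None of these 24 genes passed limma's variance test (0% of all tested probe sets did), and 3 passed against the typical variance, Aqp1, Ly6e and Icam1 (an adhesion molecule, r = 0.137, named after its value was seen), where 11.3% of all did. The count at 0.7 turned on single livers, from 2 without liver 7 to 7 without liver 4 or liver 8. It was 2 of 17 when probe sets with shared-sequence suffixes were removed, among them those of Fcgr2b and Sox18. The share of other tested probe sets was 4.03% without liver 7, 4.58% without liver 4 and 3.76% without liver 8. It was 2.71% without the shared-sequence probe sets. A further 36 genes of these lists were below the filter, and 4 of them reached 0.7, where 5.91% of other such probe sets did. Their median r was 0.146, near the 0.129 of other probe sets below the filter, 15 of the 36 were below 0 and 2 were at -0.7 or lower, where 1.29% of other such probe sets were. Of the 24 tested genes 0 were at -0.7 or lower, where 1.53% of other tested probe sets were. The 4 at 0.7 or more were Lyve1 (0.884), the hyaluronan receptor of sinusoidal endothelium, F8 (0.776), coagulation factor VIII, Emcn (0.713) and S1pr1 (0.719), named after their values were seen.

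**Figure D4:**
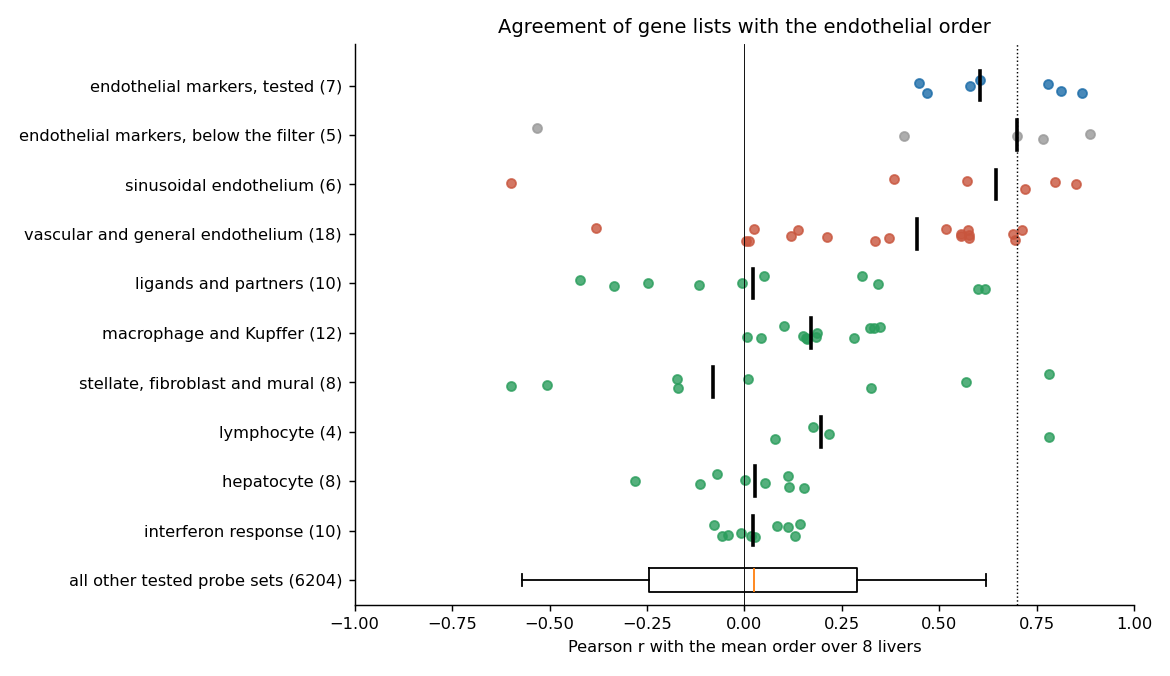
Pearson r over 8 livers with the mean order (for the endothelial markers, with the mean of the other tested genes) for each gene or probe set (points), with the number in each list in brackets and the median as a black bar; the box gives the quartiles and the whiskers the 5th and 95th percentiles of the other tested probe sets, and the dotted line is 0.7. The medians of the endothelial lists, 0.646 and 0.444, lie to the right of those of the macrophage (0.172), hepatocyte (0.0267) and interferon (0.0220) lists, and single genes overlap.

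The 10 other tested genes with the highest correlation, 1 probe set each, were Mettl7a1 (r = 0.935), Tigd5 (0.923), Hic1 (0.919), Spry4 (0.916), Nagk (0.889), Tmem185a (0.889), Rad52 (0.884), Cib1 (0.882), Map4k1 (0.879) and Itpkb (0.879). They were chosen as the highest among all tested genes, so their values carry no test. Spry4, a feedback inhibitor of receptor tyrosine kinase signalling, had signals from 250 in liver 7 to 479 in liver 5 (351 ± 87.7, SD, n = 8). Hic1, a transcriptional repressor, had signals from 125 in liver 7 to 465.5 in liver 2, a 3.72-fold range, and was past the typical-variance alternative (adjusted p = 0.0054) but not limma's test (0.782). The other 8 ranged between 1.27-fold and 1.95-fold.

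Macrophage and interferon-induced genes peaked in livers 4 and 8, which lie in the middle of the endothelial mean. Cdh5 also peaked in liver 4, as did 6 of the 24 tested genes of the endothelial lists. These were Selplg, Icam1, Ly6e, Lmo2, Ets1 and Id3, named after their values were seen. The share of all tested probe sets highest in liver 4 was not counted, so this count does not set the lists apart. Mpeg1, a pore-forming protein of macrophages, had signals from 616 in liver 3 to 5673 in liver 4, and Igtp, an interferon-induced GTPase, from 282 in liver 2 to 7132 in liver 4. The interferon-response score was highest in livers 4 and 8 (2.42 and 1.70) and the macrophage and Kupffer cell score likewise (1.36 and 0.84), whereas the endothelial mean was -0.04 and -0.01 in these livers. Over the 8 livers the endothelial mean had an r of 0.0221 with the interferon score (rho 0.0476, 0.148 without the 2 livers farthest from the median of that score). It had 0.162 with the macrophage score (rho 0.167, 0.502 without its farthest 2) and 0.0355 with the hepatocyte score (rho 0, -0.0155 without its farthest 2). None of the 12 tested macrophage genes and none of the 10 tested interferon genes reached 0.7, the highest being 0.347 and 0.143, and with a share of 2.63% over other tested probe sets such counts do not set these lists apart. These low values depended on the livers included. Without livers 2 and 5 the r was 0.750 with the interferon score and 0.744 with the macrophage score, and without livers 3 and 7 it was -0.854 and -0.769. Removing the first principal component of all tested probe sets gave 0.560 and 0.862. For the hepatocyte score the values were -0.578 without livers 2 and 5 and 0.670 without livers 3 and 7. The part of these cells and responses in the endothelial order was not tested.

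**Figure D5:**
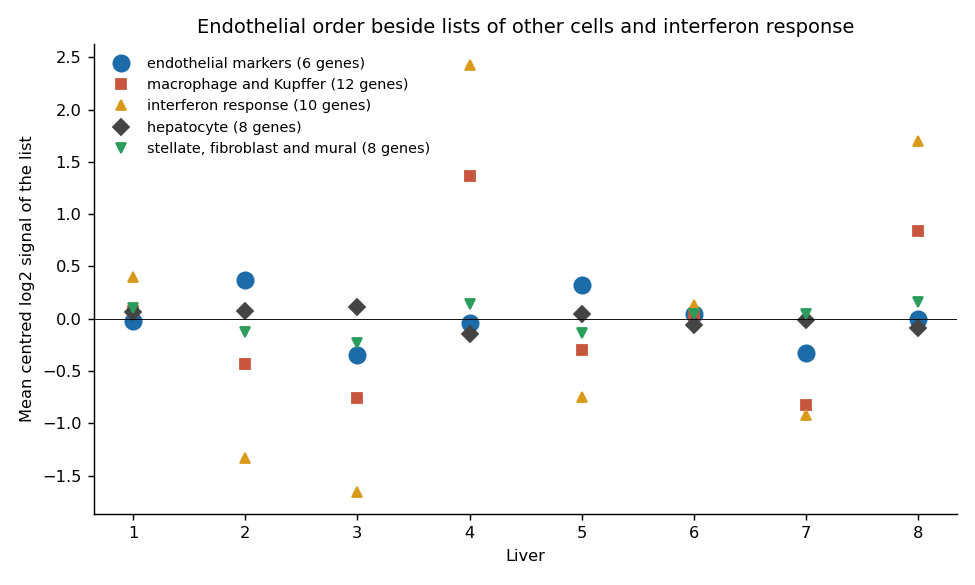
Mean centred log2 signal per liver of the 6 tested endothelial markers and of 4 other gene lists, with the number of genes in each. The interferon and macrophage lists are highest in livers 4 and 8, and the endothelial markers in livers 2 and 5.

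Markers of other cells that could carry these genes were read in the same way, against the same 2.63%. Of 8 tested stellate, fibroblast and mural genes, 1 reached 0.7, Des (desmin; r = 0.781, signals from 139 in liver 4 to 219 in liver 5), and the list's median r was -0.0798. The summed signal of all its probe sets ranged from 7762 in liver 5 to 10735 in liver 4. Dcn, its tested gene of highest signal, had 3285 and 5727 in these livers. The endothelial mean had an r of -0.106 with this list's score (rho 0, -0.594 without its farthest 2), 0.624 without livers 2 and 5 and -0.974 without livers 3 and 7. Of 4 tested lymphocyte genes, 1 reached 0.7, Ms4a1, a B cell surface protein (0.781, rho 0.5), with a summed signal of the list from 2127 in liver 7 to 3319 in liver 4. The endothelial mean had an r of 0.446 with the lymphocyte score (rho 0.167, -0.0244 without its farthest 2), the highest of the scores and array measures set beside it. The 4 platelet genes with a probe set, among them Pf4 and Gp9, were below the filter with geometric mean signals of at most 59.9. The summed signal of the 3 erythroid genes with a probe set was highest in liver 5 (15674) and lowest in liver 7 (7454), and most of it was Hba-a1, a haemoglobin gene (14118 in liver 5, r = 0.553). Alas2, of haem synthesis, had an r of -0.0998 and was lowest in liver 2, and Slc4a1, an anion exchanger of red cells, had -0.386 below the filter. Their part was not tested either.

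Measures of the arrays were set beside the same order. The endothelial mean had an r of 0.162 with median intensity (rho 0.0238, -0.354 without the 2 livers farthest from its median). With the spike-in control level it had 0.0065 (rho -0.119, 0.0676 without the farthest 2). With the signal of 3′ control probe sets over that of 5′ ones it had 0.271 for Gapdh (rho -0.143, -0.255 without the farthest 2), 0.154 for beta-actin (0.0952, -0.458) and 0.297 for pyruvate carboxylase (-0.0476, -0.0021). The high livers of the order had the highest value of 2 of these ratios, liver 2 for pyruvate carboxylase (8.81, next 6.04 in liver 3) and liver 5 for Gapdh (0.969, next 0.886 in liver 3). Their part in the order was not tested. The spike-in level was 10.70 to 10.88 (log2) on arrays 1 to 4 and 10.18 to 10.46 on arrays 5 to 8, with no batch named in the labels. Each of these sets of arrays held 1 of the high livers (2, 5) and 1 of the low livers (3, 7), and with values centred within each set mean pairwise r was 0.559. Quantile normalization and scaling to a common median kept liver 2 highest and made liver 7 lowest. Scaling to a common median moved them by -0.10 (liver 8) to 0.11 (liver 3) on the log2 scale.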

How the data were processed

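Liver RNA was hybridised to Affymetrix mouse U74Av2 arrays, 1 per mouse, per the labels. The authors deposited linear intensity values, and how they were summarised and scaled is not given in the sources used here. Trimmed means (2% at each end) agreed within a tolerance of 10%, so intensities were used as deposited. The number of arrays limits the precision, and the spread may be partly technical.

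Probe sets were named from the platform annotation, and updating through Entrez identifiers (RefSeq, GRCm38.p6) changed 0 symbols. Of 12422 non-control probe sets, 10833 had 1 symbol, 396 several and 1193 none, and 66 controls were left out. Values were set to a floor of 11.2 (10th percentile) and log2 transformed. The filter left 6211 probe sets for 4819 genes, each gene represented by its probe set of highest mean. Variances were tested with limma 3.58.1 in R 4.3.3 (one-sided F test, 7 and 4.90 degrees of freedom, Benjamini-Hochberg adjustment). The alternative used a loess curve (span 0.3) and a chi-square distribution. Both were tested on simulated data. The mean order is the mean of centred log2 signals, and a gene follows it at r of 0.7 or more. The text names all marker probe sets, the 10 nearest genes and, chosen from each list, genes among the 3 of highest mean signal or at r of 0.7 or more. The markers, lists and rules were chosen with earlier results of these data known. Alternatives changed scaling, floor, filter, probe sets, livers, ranks, centring within livers 1 to 4 and 5 to 8, and the first principal component.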

Additional observations from a re-analysis of the deposited data

Results flagged for a closer look

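In 3 of the 12 marker probe sets a single liver lay far from the other 7 by Dixon's gap test on log2 signals. The share of other probe sets flagged in this way was not counted, so the count does not set the markers apart. Chance alone picks out about 1 in 20 such checks, and 13 were made, the mean order among them. The Flt4 probe set below the filter had a signal of 22.9 in liver 7, against 81.1 in the next lowest liver. The Flt1 probe set nearer the filter had 228.6 in liver 2, against 161 in the next highest. The other Flt1 probe set had 93.9 in liver 7, against 50 in the next highest. All 3 probe sets were below the filter.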

How the results depend on the processing

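The count of 0 tested marker probe sets past the variance test was the same under all 20 alternatives run. Of all tested probe sets, limma's test called at most 24 of 4807 (shared-sequence probe sets removed), and the typical-variance alternative 702 of 6211. With so few called, a count of 0 does not set the markers apart. With the filter at the 75th percentile 1 marker gene, Eng, was left, so no mean order could be computed. Mean pairwise r was within its jackknife spread of 0.166 under 19 alternatives. It moved to 0.305 without livers 2 and 5 and 0.293 without livers 3 and 7, both chosen after seeing the data. With single livers left out it was 0.425 to 0.632. The range of the order, 0.72, was 0.87 with no filter, 0.40 without livers 2 and 5, 0.41 without livers 3 and 7, and 0.67 to 0.72 with single livers left out. The 3 of 6 marker genes following it were 5 of 7 without livers 4 and 8, 5 of 6 with the first principal component removed, 1 of 6 by ranks, and 2 to 5 with single livers left out. The 4 of 24 other endothelial genes were 7 of 60 with no filter, 2 of 17 without shared-sequence probe sets, 9 of 25 without livers 4 and 8, 8 of 24 without livers 3 and 7, 9 of 24 with the first component removed, and 2 to 7 with single livers left out. Ligand and partner genes following it went from 0 to 1 with no filter, without livers 4 and 8, without livers 3 and 7, centred within livers 1 to 4 and 5 to 8, and with the first component removed (0 to 1 with single livers left out). The share of other tested probe sets reaching 0.7 also moved, to 4.13% with no filter, 7.35% without livers 4 and 8, 10.1% without livers 3 and 7 and 5.16% with the component removed. It was 3.68% by ranks, 2.71% without shared-sequence probe sets, 4.13% centred within livers 1 to 4 and 5 to 8, and 3.11% to 5.25% with single livers left out. The causes were not tested. Signals below the filter cannot be told from background, which limits Tek, Pecam1, Flt1 and Lyve1. No paired analysis was possible because there is 1 group.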

Other observations

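A few vessel-wall and endothelial genes ran against the mean order, and they are named here after their values were seen. Of the endothelial lists, 2 of 36 genes below the filter and 0 of 24 tested genes were at -0.7 or lower, where 1.29% and 1.53% of other such probe sets were. Vwf, the von Willebrand factor of larger vessels, had an r of -0.742 and signals from 27.4 to 123.5, Ednrb, an endothelin receptor, -0.775 (9.2 to 46.3), and Acta2, smooth muscle actin, -0.797 (22.1 to 204). All 3 were below the filter. The tested stellate and fibroblast genes lay on both sides. Des had an r of 0.781, Col1a2 0.569 and Reln 0.324, whereas Lum (lumican) had -0.599 and Dcn (decorin), a matrix proteoglycan of fibroblasts, -0.508, with its lowest signal, 3285, in liver 5 and its highest, 5942, in liver 3.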
